A study of Mus musculus with 19 samples.

Results

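The NF-κB and CD40 response genes described here are 30 genes of 22101 listed in any of the 4 deposited expression tables. They were chosen by name: the 5 NF-κB transcription factor subunits, 6 IκB proteins, 11 signal adaptors, kinases and brakes, and 8 surface or secreted genes that B cells switch on after CD40 or antigen receptor signals. RNA was sequenced from B lineage cells harvested from mice 28 days after an intraperitoneal injection of sheep red blood cells, an antigen that starts germinal centre and antibody responses. All 19 libraries, in 6 groups, came from mice given this antigen, so no group was unimmunized. Splenic germinal centre B cells, sorted as CD95+ and GL7+, gave 4 libraries labelled Pik3cg knockout and 3 labelled wild type. Splenic naive B cells, sorted as CD3-, B220+ and IgD+, gave 3 libraries of each label. CD138+ antibody-secreting cells were labelled wild type only, with 3 libraries from spleen and 3 from bone marrow. The labels give neither the strain, age or sex of the mice nor the cells in which the allele was deleted, and do not tie a library to a mouse. The study text counts 3 wild-type and 4 knockout mice, so libraries of different cell types may share a mouse. Libraries are called KO-labelled and WT-labelled after the sample labels knockout and wild type. Values are counts per 1000000 assigned reads (CPM).

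NF-κB is a family of dimeric transcription factors held inactive in the cytoplasm by IκB proteins. The canonical route, fired by antigen receptors, Toll-like receptors and CD40, degrades IκB proteins and frees dimers of Rel, Rela and the Nfkb1 product. The alternative route, fired by CD40, the BAFF receptor and the lymphotoxin receptor, stabilises the kinase encoded by Map3k14 and processes the Nfkb2 product, which pairs with Relb. Among the genes these factors induce are their own inhibitors, so Nfkbia and Tnfaip3 are both targets and brakes. In germinal centres, CD40 ligand on helper T cells delivers this signal to B cells of the light zone.

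The targeted gene and the markers bear on how the group labels can be read. Pik3cg, which encodes a catalytic subunit of phosphoinositide 3-kinase, did not separate the labels. It was listed at 66.0, 52.8, 6.6 and 9.0 CPM in the KO-labelled germinal centre libraries and at 56.5, 34.3 and 19.4 CPM in the WT-labelled libraries (log2 fold change −0.60, 95% interval −2.51 to 1.32, limma adjusted p = 0.696). In naive B cells its log2 fold change was −0.08 (95% interval −0.43 to 0.27, limma adjusted p = 0.935). Gene totals do not show which exons were read. In the headers, 9 columns of naive B cells and antibody-secreting cells are called HET, where the sample labels, which are used here, say wild type. Germinal centre markers went against the cell type label of the WT-labelled germinal centre libraries. The 10 markers summed to 2948 to 3853 CPM in the KO-labelled germinal centre libraries and to 1163 to 1177 CPM in the WT-labelled libraries, where the defining genes Rgs13, Gcsam and S1pr2 were at 0 in all 3. Bcl6 was at 0.41 to 1.62 CPM in these WT-labelled libraries, below every naive library (2.40 to 12.07 CPM). Their marker sum nevertheless lay above that of the naive libraries (429.7 to 537.8 CPM). The name germinal centre B cells is used below as the sort label only. WT library 3 was the only germinal centre library with reads of the Y-linked gene Ddx3y (159.2 CPM) and its column header follows another pattern, so counts are also given without it. Naive libraries held Ighd at 3383 to 3769 CPM, and antibody-secreting cell libraries held Jchain at 105471 to 154224 CPM. Depth ran from 10.2 M to 21.6 M (1 M is 1000000) assigned reads in each library.

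Promoter sequence is shown for 3 members because their RNA differed most clearly between the germinal centre groups among members whose promoter window holds a match to the consensus κB motif, the sequence that NF-κB dimers bind. Each is the 250 bases before the RefSeq transcription start on GRCm38.p6, written along the gene's strand, with the matching bases in capitals. The Ebi3 stretch lies at chr17:55952373-55952622 on the plus strand, the Ltb stretch at chr17:35194257-35194506 on the plus strand and the Nfkbia stretch at chr12:55492648-55492897 on the minus strand.
Ebi3: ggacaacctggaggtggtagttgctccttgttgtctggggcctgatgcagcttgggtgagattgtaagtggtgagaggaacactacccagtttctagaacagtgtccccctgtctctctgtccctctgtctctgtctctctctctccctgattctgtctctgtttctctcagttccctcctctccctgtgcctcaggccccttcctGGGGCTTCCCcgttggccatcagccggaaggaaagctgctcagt
Ltb: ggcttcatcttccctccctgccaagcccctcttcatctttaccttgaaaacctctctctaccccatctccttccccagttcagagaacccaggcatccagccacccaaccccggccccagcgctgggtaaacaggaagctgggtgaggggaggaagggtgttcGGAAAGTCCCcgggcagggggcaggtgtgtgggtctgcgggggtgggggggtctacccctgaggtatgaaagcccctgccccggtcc
Nfkbia: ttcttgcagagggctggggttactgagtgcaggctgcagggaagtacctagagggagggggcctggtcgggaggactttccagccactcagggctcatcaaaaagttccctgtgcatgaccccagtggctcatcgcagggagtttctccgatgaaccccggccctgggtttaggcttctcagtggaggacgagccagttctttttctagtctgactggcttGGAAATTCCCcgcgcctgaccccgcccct
The match begins 44 bases before the start in Ebi3, 87 bases before it in Ltb and 29 bases before it in Nfkbia, and reads along the opposite strand in Ltb and Nfkbia. Ebi3 and Nfkbia were lower in the KO-labelled libraries and Ltb was higher, so a match went with either direction. RefSeq windows that run from 250 bases before to 50 bases after the start were found for 24 members, and 12 of them (50%) held a match on either strand, against 5.14% of 27025 genes with a window. The other members with a match were Nfkb2, Nfkbie, Tnfaip3, Tnip1, Rel, Bcl10, Bcl3, Nfkbid and Traf3. Of the members that passed the test in germinal centre B cells, 7 of 10 with a window held a match, and of the rest 5 of 14. A match describes letters in the window and is not evidence of binding.

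The first comparison asks how the members differed between KO-labelled and WT-labelled germinal centre B cells. Lower in the KO-labelled libraries were the subunit Nfkb2, the inhibitors Nfkbia, Nfkbie and Tnfaip3, the survival gene Cflar and the surface and secreted genes Cd83, Ebi3, Ccl22 and Il4i1. Cd86, Ltb and Tnip1 were higher. Of the 25 members that passed a filter of a mean of 10 CPM, 9 were lower, 3 were higher and 13 did not pass limma's test at a Benjamini-Hochberg adjusted p under 0.05. Over all 8522 genes tested, 5.09% were lower and 8.54% higher (13.6% in either direction). The median log2 fold change (KO-labelled over WT-labelled) was −1.06 over the 25 members and 0.03 over all genes tested. It was below 0 in 20 of the 25 members, against 48.9% of all genes. Without overlap between the groups, 13 members were lower and 3 higher, where 11.7% and 15.6% of all genes were. Positions below are on mm10, from GENCODE release M21. Fold changes are on the log2(CPM + 1) scale, which understates those of low genes. In sorted bulk samples, fewer cells of a type and less RNA per cell cannot be told apart.

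**Figure D1:**
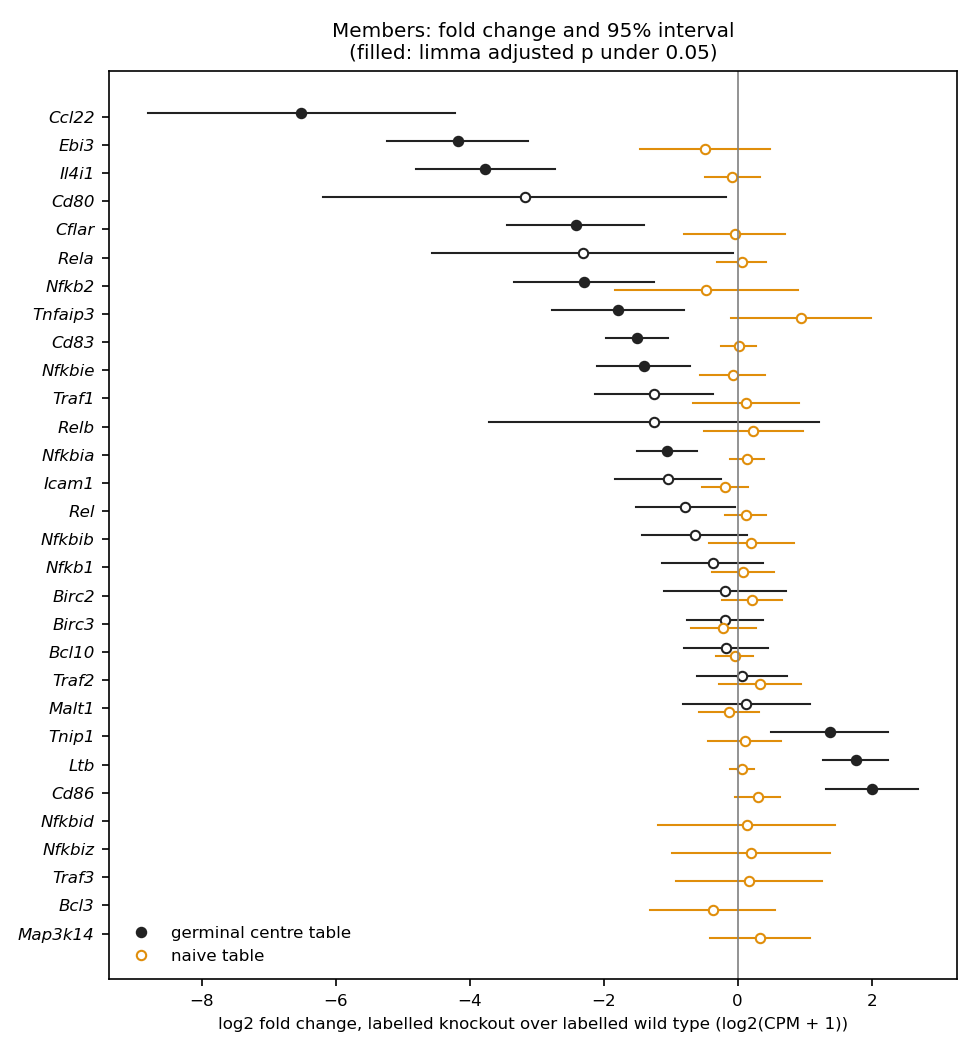
Log2 fold change (KO-labelled over WT-labelled) with its 95% interval for each member tested in germinal centre B cells (black) and naive B cells (orange), on the log2(CPM + 1) scale. Filled points passed limma's adjusted p of 0.05: 9 lie left of 0 and 3 right of it in germinal centre B cells, and none in naive B cells.

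Among the transcription factor subunits, 1 of 5 passed the test. Nfkb2 (ENSMUSG00000025225, chr19:46304320-46312385, plus strand), the precursor subunit of the alternative route, was listed at 12.5, 13.0, 21.4 and 7.1 CPM in the 4 KO-labelled libraries and at 74.9, 55.7 and 68.4 CPM in the 3 WT-labelled libraries. Every KO library lay below every WT library (limma log2 fold change −2.30 with SE 0.46, adjusted p = 0.0118). Nfkb2 lost its call without any 1 of the WT libraries (limma adjusted p = 0.0611, 0.0506 and 0.0571 without libraries 1, 2 and 3). Rel, which encodes c-Rel, the subunit most tied to B cell activation, was listed at 39.9 to 103.2 CPM against 113.0 to 143.2 CPM. The groups did not overlap, yet Rel missed the threshold (limma log2 fold change −0.78 with SE 0.33, adjusted p = 0.153). Rela, the main activating subunit of the canonical route, was also apart, at 0.1 to 21.4 CPM against 22.2 to 35.7 CPM, and missed it with a wide error (limma log2 fold change −2.31 with SE 1.00, adjusted p = 0.166). Nfkb1 (log2 fold change −0.37) and Relb (−1.25) overlapped between the groups.

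Of the 6 IκB proteins, 3 passed the filter and 2 of these were lower. Nfkbia (ENSMUSG00000021025, chr12:55489410-55492647, minus strand) encodes the inhibitor that canonical signals degrade and then re-induce, and its promoter is printed above. It was listed at 222.6, 354.9, 260.3 and 225.5 CPM in the KO-labelled libraries and at 609.8, 578.1 and 455.3 CPM in the WT-labelled libraries. The groups were apart, and the difference was called under every alternative tried (limma log2 fold change −1.06 with SE 0.20, adjusted p = 0.00872). Nfkbie (ENSMUSG00000023947, chr17:45555703-45563169, plus strand), a further cytoplasmic inhibitor, was listed at 59.8, 42.0, 45.6 and 88.8 CPM against 186.7, 149.6 and 123.6 CPM. It too was lower in every KO library (limma log2 fold change −1.40 with SE 0.31, adjusted p = 0.0164), with the call lost without WT library 1 or 2 (limma adjusted p = 0.0758 and 0.0687). Nfkbib, at 31.2 to 82.7 CPM against 71.9 to 96.3 CPM, overlapped. The atypical nuclear members Nfkbid, Nfkbiz and Bcl3 averaged 8.57, 9.49 and 4.04 CPM over the germinal centre libraries and fell below the filter.

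Of 9 tested signal adaptors, kinases and brakes, 2 were lower and 1 was higher. Cflar (ENSMUSG00000026031, chr1:58711508-58758884, plus strand), which encodes an inhibitor of caspase-8 activation that keeps activated lymphocytes alive, was listed at 57.4, 17.9, 76.0 and 38.9 CPM in the KO-labelled libraries. In the WT-labelled libraries it was listed at 304.5, 216.7 and 181.1 CPM, apart from all of the former (limma log2 fold change −2.42 with SE 0.45, adjusted p = 0.0086). Its call was lost without KO library 1 and WT library 3 together (limma adjusted p = 0.0527). Tnfaip3 (ENSMUSG00000019850, chr10:19000910-19015657, minus strand), a ubiquitin-editing brake on NF-κB, was listed at 53.8, 29.1, 43.0 and 15.9 CPM against 132.9, 79.9 and 136.9 CPM. It was apart and called (limma log2 fold change −1.78 with SE 0.44, adjusted p = 0.0271), but not without KO library 2 (limma adjusted p = 0.0509) or WT library 1, 2 or 3 (0.104, 0.0522 and 0.111), nor with no filter on low values (0.0554). Tnip1 (ENSMUSG00000020400, chr11:54910785-54962917, minus strand), whose product binds the Tnfaip3 product and also restrains the pathway, went the other way. It was listed at 78.3, 53.1, 36.8 and 48.4 CPM against 17.0, 24.5 and 17.8 CPM, with no overlap (limma log2 fold change 1.37 with SE 0.39, adjusted p = 0.0460). Its call was held in 5 of 16 alternatives and was lost without any 1 of 6 of the 7 libraries, KO library 3 being the exception (limma adjusted p = 0.0748 to 0.128 without each of the 6). Traf1, an adaptor that is itself an NF-κB target, was apart but missed the threshold, at 33.2 to 90.4 CPM against 102.4 to 200.2 CPM (limma log2 fold change −1.25 with SE 0.39, adjusted p = 0.0671). It passed without KO library 4 (limma adjusted p = 0.0338). In the complex that holds the Map3k14 kinase low, Traf2 (log2 fold change 0.07, 95% interval −0.60 to 0.74), Birc2 (−0.19, −1.10 to 0.72) and Birc3 (−0.19, −0.76 to 0.38) did not pass. Neither did Bcl10 (−0.18, −0.81 to 0.45) and Malt1 (0.13, −0.82 to 1.08), partners in the relay from the antigen receptor. Traf3 and Map3k14 averaged 8.26 and 3.76 CPM and were not tested.

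Surface and secreted response genes held the 3 largest fold changes, with 4 of 8 lower and 2 higher. Ebi3 (ENSMUSG00000003206, chr17:55952640-55957022, plus strand) encodes a subunit shared by interleukin-27 and interleukin-35, and its promoter is printed above. It was listed at 33.9, 15.0, 11.5 and 40.8 CPM in the KO-labelled libraries and at 582.8, 453.2 and 281.1 CPM in the WT-labelled libraries (limma log2 fold change −4.18 with SE 0.46, adjusted p = 0.000837). The lowest WT library lay far above the highest KO library. The antisense gene Gm16712, whose reads cannot be told from those of Ebi3 without a strand setting, reached at most 35.6 CPM in any library. That is below the WT-labelled Ebi3 values but of the size of the KO-labelled ones, and its part in them was not tested. Il4i1 (ENSMUSG00000074141, chr7:44816387-44840809, plus strand), an L-amino acid oxidase secreted by activated B cells and myeloid cells, was listed at 224.5, 42.8, 106.5 and 138.4 CPM against 1751, 1449 and 1341 CPM (limma log2 fold change −3.77 with SE 0.46, adjusted p = 0.0013). Il4i1 overlaps Nup62 on the same strand over 14426 bases, and how shared reads were assigned is not given. Nup62 reached at most 152.2 CPM in any library, below the WT-labelled Il4i1 values but of the size of the KO-labelled ones. Tbc1d17 and Atf5, which overlap Il4i1 on the opposite strand, reached at most 115.2 and 43.8 CPM. The part of these genes in the Il4i1 values was not tested. Ccl22 (ENSMUSG00000031779, chr8:94745590-94751699, plus strand), a chemokine that draws CCR4-bearing T cells, was listed at 10.9 CPM in KO library 1 and at 0 in the other 3, against 305.3, 187.4 and 83.4 CPM. Its log2 fold change in limma, −6.51 with SE 1.02 (adjusted p = 0.00372), depends on the pseudocount and ran from −9.02 to −4.71 over the alternatives, with the call kept in each.

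Cd83 (ENSMUSG00000015396, chr13:43784775-43803132, plus strand), an activation marker that is high on light zone B cells, was listed at 1110.0, 974.0, 1103 and 682.2 CPM in the KO-labelled libraries and at 3411, 2548 and 2248 CPM in the WT-labelled libraries. It was lower in all 4 (limma log2 fold change −1.50 with SE 0.21, adjusted p = 0.0021). Cd86 (ENSMUSG00000022901, chr16:36603869-36666081, minus strand) is a costimulatory ligand for CD28 on T cells and moved opposite to Cd83. It was listed at 260.8, 174.9, 224.1 and 219.99 CPM against 72.9, 65.6 and 31.5 CPM, with every KO library above every WT library (limma log2 fold change 2.01 with SE 0.30, adjusted p = 0.0033). Ltb (ENSMUSG00000024399, chr17:35194439-35196320, plus strand), the lymphotoxin chain that anchors the heterotrimer acting on lymphoid stroma, was listed at 1115, 1793, 1164 and 943.3 CPM against 329.6, 336.9 and 414.3 CPM. The groups were again apart (limma log2 fold change 1.76 with SE 0.21, adjusted p = 0.00126). Cd80, the other CD28 ligand, was listed at 38.0 CPM in KO library 2 and at 0.3, 0.0 and 0.2 CPM in libraries 1, 3 and 4, against 25.6, 17.4 and 32.1 CPM. One library therefore made the groups overlap (limma log2 fold change −3.18 with SE 1.33, adjusted p = 0.155), and without it Cd80 was called (limma adjusted p = 0.0125). Icam1, the ligand of the integrin LFA-1, was at 25.3 to 53.4 CPM against 56.4 to 98.9 CPM, apart but not called (limma log2 fold change −1.04 with SE 0.35, adjusted p = 0.0876).

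**Figure D2:**
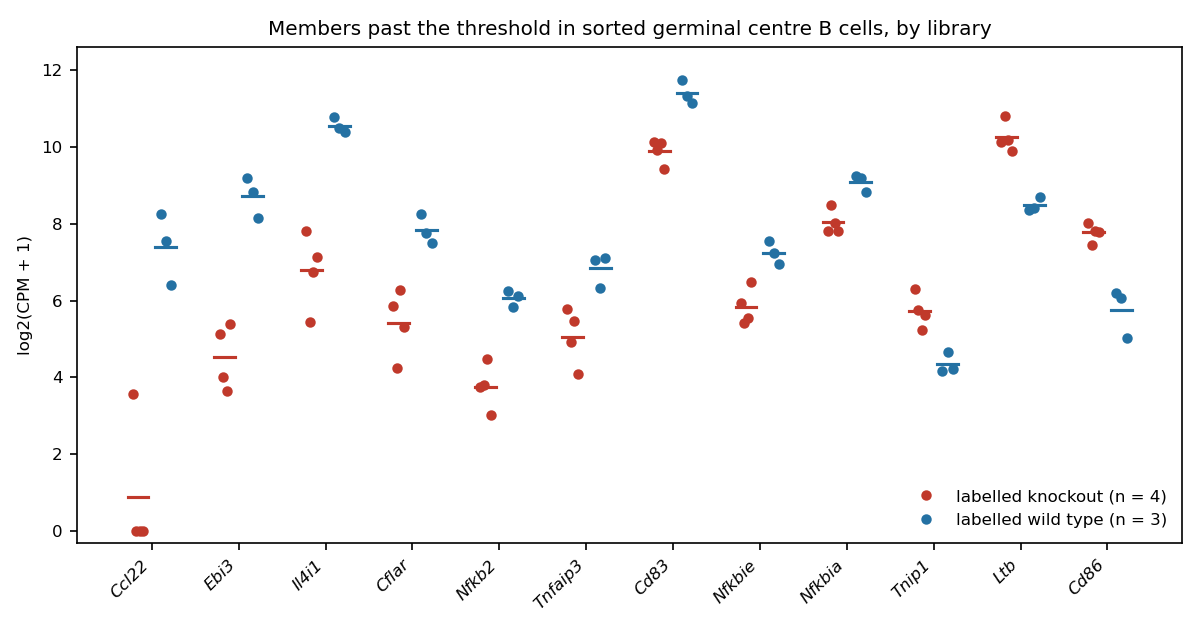
Levels of the 12 called members in each germinal centre library on the log2(CPM + 1) scale, KO-labelled (red, n = 4) and WT-labelled (blue, n = 3), with horizontal bars at the group means. The red and blue points do not overlap for any of the 12. Ccl22 is at 0 in 3 red points.

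A member that passes the filter only through its higher group had to differ. That holds for Rela, Relb, Cd80 and Ccl22, each with 1 group's mean under 10 CPM, and Ccl22 is the 1 of these among the called members. The calls of Ccl22, Cd83, Cd86, Ebi3, Il4i1, Ltb and Nfkbia, 7 of the 12, held under all 16 alternatives. Without KO library 1 and WT library 3 together, 5 members were lower and 2 higher, and 432 genes were called in place of 1162; the calls lost were those of Cflar, Nfkb2, Nfkbie, Tnfaip3 and Tnip1. WT library 3 left out alone gave 7 lower and 2 higher.

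Markers of other cell types, the mitochondrial share and the secretory state differed between the same libraries. Mitochondrial genes took 3.27% to 3.96% of reads in the KO-labelled and 2.07% to 2.42% in the WT-labelled germinal centre libraries, and 2.16% to 2.48% against 1.36% to 1.77% in naive B cells, without overlap in either, and their part in the members' values was not tested. The sum of 12 T cell markers was 1043 to 2102 CPM in the KO-labelled libraries and 56.9 to 105.2 CPM in the WT-labelled libraries, where 7 of the 12, Cd3e among them, were at 0 in all 3. Of 11 tested T cell markers, 9 were higher in the KO-labelled libraries. The sum of 12 monocyte and macrophage markers was 156.3 to 1762 CPM against 168.8 to 384.0 CPM, with 9 of the 12 at 0 in every WT library and Lyz2 at 53.6 to 298.3 CPM in the KO-labelled libraries. Cd86 is also made by myeloid cells and Ltb by T cells, and the part of such cells in the differences of the members was not tested. Antibody-secreting cell markers summed to 4114 to 12110 CPM against 7345 to 11632 CPM, and 5 of 10 were lower in the KO-labelled libraries. Xbp1, a driver of the secretory programme, was at 355.7 to 540.9 CPM against 2459 to 3742 CPM, and Prdm1, the plasma cell repressor, at 0 to 20.7 CPM against 56.8 to 102.1 CPM. Jchain, on the same list, had the higher mean in the KO-labelled libraries, 7923 CPM against 3719 CPM. It overlapped between the groups (2833 to 10421 CPM against 2071 to 4775 CPM) and did not pass. For scale, Xbp1 averaged 358.7 CPM in WT-labelled naive B cells and 4389 CPM in spleen antibody-secreting cells. In the same order Prdm1 averaged 2.7 and 85.0 CPM, and Jchain 423.0 and 107061 CPM. The part of these differences in cell make-up in the members' values was not tested, and cell make-up and genotype label cannot be told apart here.

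**Figure D3:**
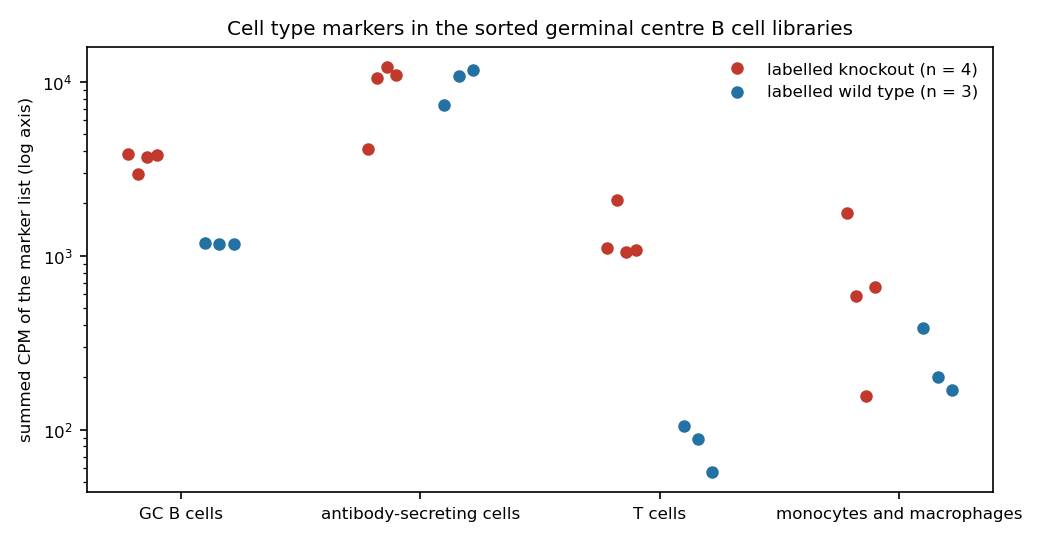
Summed CPM of 4 cell type marker lists (log axis) in each germinal centre library, KO-labelled (red, n = 4) and WT-labelled (blue, n = 3). T cell and germinal centre B cell sums are apart, whereas antibody-secreting cell sums and monocyte and macrophage sums overlap.

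The same comparison in naive B cells shows whether the members also differed in cells sorted outside the germinal centre gate. None of the 28 members tested passed limma's test, and none had an unadjusted p under 0.05 (smallest 0.0701, Tnfaip3). Over all 8832 genes, 0 were called (0%), and 6.65% had an unadjusted p under 0.05. The median log2 fold change was 0.09 over the members, with a range from −0.49 (Ebi3) to 0.95 (Tnfaip3). Cd80 fell below the filter, and Ccl22 is not listed in that table. Intervals were narrow for the well expressed members. Ltb was listed at 3164.5, 3015 and 3395 CPM in the KO-labelled libraries and at 3335, 2861 and 2952 CPM in the WT-labelled libraries (95% interval of the log2 fold change −0.11 to 0.25). Cd83 was listed at 1336, 1583 and 1169 CPM against 1367, 1285 and 1363 CPM (−0.24 to 0.27), and Il4i1 at 226.0, 188.6 and 164.1 CPM against 178.7, 248.2 and 185.5 CPM (−0.48 to 0.33). Cd86 was higher in all 3 KO-labelled libraries, at 107.6, 94.1 and 86.0 CPM against 78.9, 77.0 and 75.9 CPM, but by an amount that did not pass (limma log2 fold change 0.30 with SE 0.14, adjusted p = 0.767). With Cd86, 2 members were higher without overlap and 1, Icam1, lower, against 5.99% and 7.61% of all genes.

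Whether the labelled genotype differences themselves differed between germinal centre and naive B cells was tested in a joint fit of both tables. Of 27 members tested, 6 had a more negative difference in germinal centre B cells and 2 a more positive one, against 2.82% and 5.02% of 8871 genes (7.83% in either direction). The difference of the log2 fold changes, germinal centre minus naive, was −3.69 for Ebi3 (limma adjusted p = 0.0055), −3.69 for Il4i1 (0.0022), −1.52 for Cd83 (0.0039) and −1.20 for Nfkbia (0.0082). It was 1.71 for Cd86 (limma adjusted p = 0.0130) and 1.69 for Ltb (0.0018). These 6 were called under all 22 alternatives. Tnfaip3 (−2.73, limma adjusted p = 0.0293) and Cflar (−2.37, 0.0377) were called in 14 and 9 of the 22. Both calls were lost without germinal centre WT library 1 (limma adjusted p = 0.0664 and 0.0896) or 3 (0.0724 and 0.0555), KO-labelled naive library 2 (0.0713 and 0.0954) or 3 (0.0669 and 0.0866), or WT-labelled naive library 2 (0.0573 and 0.0639). That of Tnfaip3 was also lost without KO-labelled naive library 1 (limma adjusted p = 0.0501), and that of Cflar without germinal centre WT library 2 (0.0738), KO-labelled germinal centre library 4 (0.0528) or WT-labelled naive library 1 or 3 (0.0769 and 0.0939). Nfkb2 (−1.83), Nfkbie (−1.33) and Tnip1 (1.27), which passed in germinal centre B cells, did not pass here, so a difference between the cell types was not shown for them. The tables were deposited separately, and the added term for each group absorbs shifts that both labels share. Mice that may have given both cell types are not in the fit.

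Across the 6 groups no member had its highest mean CPM in antibody-secreting cells, and the members divided over whether germinal centre or naive B cells held more. Each gene is compared only with itself, and since the tables were deposited separately these levels are described without a test. The germinal centre table lists 17939 genes, and the naive and antibody-secreting cell tables list 19397 each. Of the 29 members listed in all 4 tables, the highest mean was in WT-labelled germinal centre B cells for 13, in naive B cells for 14 (9 labelled knockout, 5 labelled wild type) and in KO-labelled germinal centre B cells for 2, Cd86 and Tnip1. The lowest mean was in bone marrow antibody-secreting cells for 23, in spleen antibody-secreting cells for 4 and in KO-labelled germinal centre B cells for 1, Rela, while Cd80 was at 0 in both bone marrow and KO-labelled naive libraries. An antibody-secreting cell group thus held the lowest mean CPM for 27 of the 29, as for 82.5% of 8871 genes. Scaled to reads outside immunoglobulin genes, which took most reads in those cells, it did for 24, against 58.6% of genes. The highest mean on that scale was in spleen antibody-secreting cells for Birc2 (140.9, next 124.7 in KO-labelled naive B cells) and Nfkbiz (17.3, next 13.1 there). Both overlapped the naive libraries. Jchain was still counted on that scale.

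**Figure D4:**
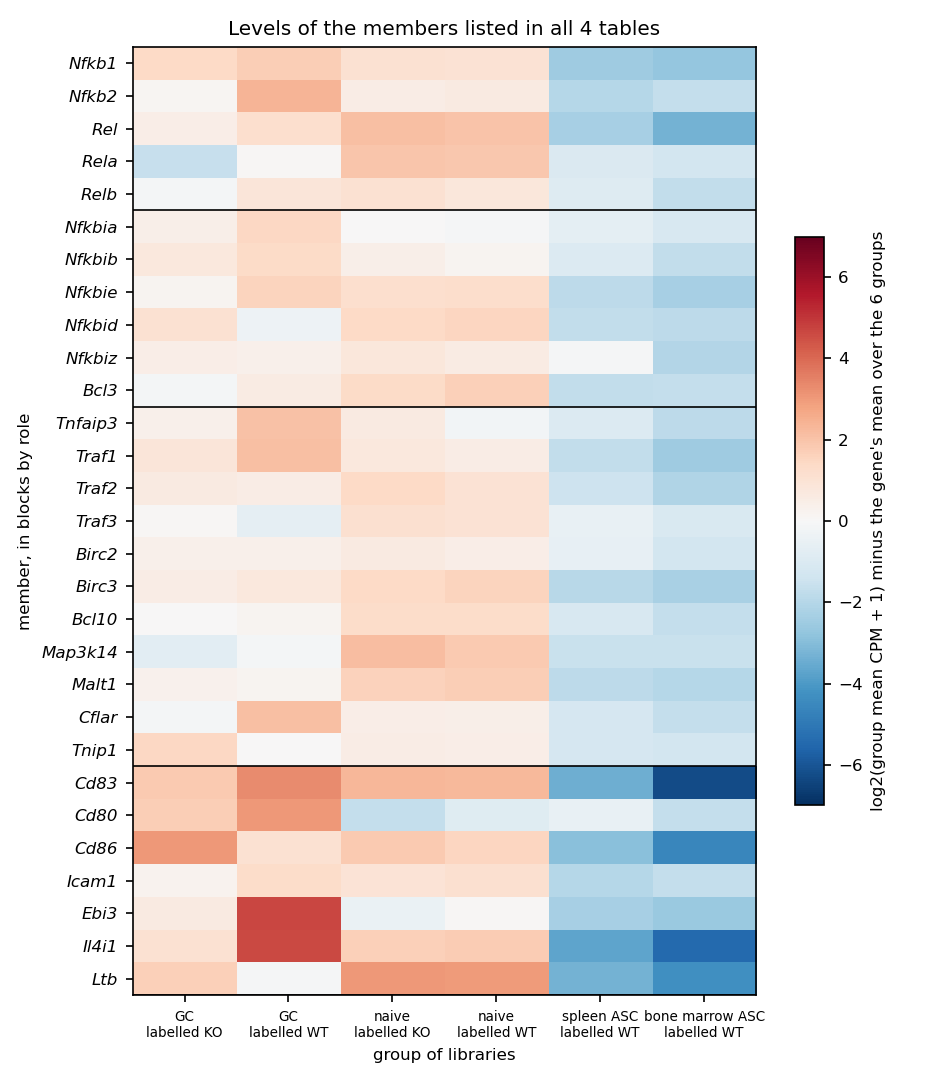
Group mean levels of the 29 members listed in all 4 tables, as log2(mean CPM + 1) minus the gene's mean over the 6 groups (red above, blue below), in blocks by role. Antibody-secreting cell columns are blue for nearly every member, and Ebi3 and Il4i1 stand out in WT-labelled germinal centre B cells.

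Set against naive B cells, the libraries of WT-labelled germinal centre B cells were above every naive library for 10 members and below every one for 10, where 26.9% and 25.3% of 8871 genes were. Those libraries lacked defining germinal centre markers, as given above, so these levels belong to the sort label. The 10 above were Nfkb2, Nfkbia, Nfkbib, Tnfaip3, Traf1, Cd83, Cd80, Ebi3, Cflar and Il4i1. Ebi3 averaged 439.0 CPM ± 151.3 (SD, n = 3) there against 17.2 CPM ± 7.8 in WT-labelled naive B cells, and Il4i1 1514 CPM ± 213 against 204.1 CPM ± 38.3. The 10 below were Rel, Rela, Nfkbid, Traf2, Traf3, Cd86, Bcl10, Map3k14, Malt1 and Ltb. Rela averaged 104.0 CPM in WT-labelled naive B cells and 28.6 CPM in those germinal centre libraries. Libraries of KO-labelled germinal centre B cells were above every naive library for 3 members, Nfkbia, Cd86 and Tnip1, and below every one for 10, where 22.3% and 19.7% of genes were. Rel, Rela, Bcl10, Map3k14, Malt1 and Ltb were below naive B cells under either label. Cd83 and Ebi3 show the spread of patterns. Cd83 in WT-labelled germinal centre B cells lay above every naive library and in the KO-labelled libraries below every one. Ebi3 in the KO-labelled libraries (11.5 to 40.8 CPM) overlapped naive B cells (9.6 to 25.6 CPM).

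Every antibody-secreting cell library lay below every naive library for 25 of the 29 members, but so it did for 71.5% of all genes, and immunoglobulin genes took 63.3% of reads in spleen and 67.5% in bone marrow antibody-secreting cells against 3.97% in WT-labelled naive B cells. Scaled to 1000000 reads outside immunoglobulin genes, 18 of the 29 members lay below every naive library, against 29.8% of genes. These 18 were Nfkb1, Rel, Rela, Nfkbie, Nfkbid, Bcl3, Traf1, Traf2, Birc3, Bcl10, Map3k14, Malt1, Cd83, Cd86, Icam1, Ebi3, Il4i1 and Ltb. That scale still counts Jchain, which averaged 107061 CPM in spleen and 139410 CPM in bone marrow antibody-secreting cells. In WT-labelled naive B cells Jchain averaged 423.0 CPM. Its part in the scaled values and in the scaled counts for bone marrow and spleen was not tested. On that scale Rel averaged 27.2 in spleen and 14.3 in bone marrow antibody-secreting cells and 233.9 in WT-labelled naive B cells. Cd83 averaged 68.5, 8.2 and 1394 in the same order. Nfkbia turned round on that scale, with 335.3 and 280.7 against 195.2, whereas in CPM it had been below every naive library. Birc2 (140.9 and 96.6 against 109.8) and Nfkbiz (17.3 and 2.6 against 11.4) had a mean above naive B cells in spleen and below them in bone marrow. In spleen their libraries overlapped the naive ones. Tnfaip3 (36.7 and 21.5 against 25.7) lay near naive B cells. Bone marrow means were below spleen means for 25 of the 29 members in CPM and for 24 on the other scale, against 74.7% and 65.4% of genes. Without overlap, 8 members were lower in bone marrow, Relb, Nfkbiz, Traf1, Cd83, Cd80, Cd86, Birc2 and Birc3, against 19.8% of genes, and none was higher. Scaled to reads outside immunoglobulin genes, 5 of these, Nfkbiz, Cd83, Cd80, Cd86 and Birc2, were still lower without overlap, against 15.2% of genes, while Relb, Traf1 and Birc3 overlapped.

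The members varied more between libraries in germinal centre B cells than in naive B cells. Over the 21 members with at least 10 CPM on average in all 4 B cell groups, the median coefficient of variation was 34.9% in KO-labelled germinal centre B cells and 20.8% in the WT-labelled libraries. In naive B cells it was 15.9% and 14.7%. Nfkbia was the steadiest by the mean over the 4 groups, at 23.2%, 14.9%, 6.6% and 3.1% in the same order, and Ebi3 the least steady, at 56.4%, 34.5%, 24.7% and 45.6%. The coefficient of variation was not computed over all genes, so whether this order is particular to the members was not tested. The correlation between replicates is another measure. Across genes, replicates correlated at a Pearson r of 0.681 to 0.743 (KO-labelled) and 0.827 to 0.873 (WT-labelled) in germinal centre B cells. In naive B cells r was 0.880 to 0.912.

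Other genes of the pathway, 90 in all and listed by their role in it, were read in the same fits. In germinal centre B cells 76 were tested, with 10 higher and 11 lower in the KO-labelled libraries, against 8.54% and 5.09% of all genes tested. Of 9 tested receptors, 4 were higher and none lower. Cd180, a Toll-like receptor relative, was listed at 85.4 to 136.8 CPM against 13.8 to 22.3 CPM (limma log2 fold change 2.59 with SE 0.32, adjusted p = 0.0013). Tnfrsf4 (log2 fold change 5.19) and Cd27 (6.21), costimulatory receptors that T cells also carry, were at 43.1 to 97.7 CPM against 0 to 5.8 CPM and at 22.5 to 149.5 CPM against 0 to 0.046 CPM. Cd40 itself, at 70.7 to 111.1 CPM against 95.3 to 155.4 CPM, did not pass (log2 fold change −0.48, limma adjusted p = 0.271). Kinases and adaptors had 2 of 19 higher and none lower: Traf5, an adaptor of CD40 and CD27 (log2 fold change 4.76), and Sharpin, part of the linear ubiquitin ligase (1.24). Of 12 brakes, Otulin, which removes linear ubiquitin, was lower (−1.28) and Tax1bp1, a partner of the Tnfaip3 product, was higher (1.03). Further target genes had 10 of 36 lower and 3 higher. Those lower with the largest fold changes were Ccl4, a chemokine (0 to 6.9 CPM against 51.4 to 102.0 CPM, log2 fold change −5.22), and Fcer2a, the low-affinity IgE receptor CD23 (43.0 to 82.1 CPM against 1524.5 to 2439 CPM, −4.94). Fcer2a is also on the list of naive B cell markers. Naive libraries held it at 1064 to 1388 CPM, below every WT-labelled germinal centre library. Of 10 naive B cell markers tested in germinal centre B cells, 4 were higher in the KO-labelled libraries and 2, Fcer2a among them, lower. The part of cell make-up in the Fcer2a values was not tested. Tnfrsf4, Cd27 and Traf5 averaged 1.93, 0.015 and 3.33 CPM in the WT-labelled libraries, and Ccl4 averaged 1.96 CPM in the KO-labelled libraries. Each of these genes passed the filter of 10 CPM only through its higher group and so had to differ. In naive B cells 0 of the 67 tested passed. The difference between the cell types was called for 7 higher and 8 lower of 76, against 5.02% and 2.82% of all genes.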

How the data were processed

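The authors deposited CPM values, in 4 tables whose columns each sum to 1000000. Reads were aligned with STAR to mm10, per the submitters' processing notes, without versions; the counter, annotation and use of strand were not given in the sources used here. Overlapping and antisense genes are therefore uncertain, which touches 9 members. A constant of 0.0001 in every cell of the germinal centre table was removed, and 19 genes whose names had become dates were dropped from the other tables. Steps between low CPM values show what 1 read adds and thereby the depth, which puts 3 reads at 0.139 to 0.293 CPM. From 53.8% to 65.5% of values under 20 CPM in the germinal centre table and 85.4% to 88.8% elsewhere fell within 0.02 of a whole read, and no count test was made. Depth limits of this kind cover counting error only, whereas SEs, intervals and p-values come from the spread between libraries.

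The tests covered genes averaging 10 CPM or more, on log2(CPM + 1) by limma 3.58.1 (trended eBayes, R 4.3.3) within each table, and in a joint fit with a term per group for the difference. Benjamini-Hochberg adjustment ran over all genes tested, with 0.05 as the threshold, in the fits of germinal centre and naive B cells and of their difference. The fits were tested on simulated data. In germinal centre B cells they recovered 11.1% of simulated 2-fold and 40% of 4-fold changes, and in naive B cells 26.5% and 58.7%. For the difference they recovered 4.65% and 30.6%. False calls were 5 of 87, 7 of 129 and 5 of 77 in the same order. A member that did not pass may therefore still differ. Levels across tables, κB matches and counts came from Python 3.11.15 scripts using pandas 2.3.3, and figures drawn with matplotlib 3.10.9. The members and all lists were chosen with earlier results of these data known. Every member is named. Values in every library are given for members that passed in germinal centre B cells or in the difference, and of the other pathway genes those named are up to 3 called per list with the largest fold change, plus Cd40; a further target gene that this rule takes in is not reported here. Nothing in the labels says that libraries of a group came from separate mice, so p-values measure a spread that may be technical, and mice shared between cell types are not modelled. Replicate libraries correlated across genes at a Pearson r of 0.681 to 0.743 (KO-labelled) and 0.827 to 0.873 (WT-labelled) in germinal centre B cells and at 0.880 to 0.912 in naive ones. Alternatives changed the pseudocount, filter, scaling, weights, estimation, replicate block and the libraries used; 2 sets were added after seeing the data, leaving out KO library 1 with WT library 3, and scaling to reads outside immunoglobulin genes.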

Additional observations from a re-analysis of the deposited data

Results flagged for a closer look

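In the group of 4 germinal centre libraries labelled knockout, 1 library stood apart from the other 3 by Dixon's test in 7 of 41 quantities, where chance flags about 1 in 20. Library 2 was high for Cd80 (37.99 CPM), Birc2 (201.1 CPM), Map3k14 (10.65 CPM), the summed T cell markers (2102 CPM) and the summed natural killer and innate lymphoid cell markers (98.66 CPM). Library 1 was high for Ccl22 (10.87 CPM) and for the summed erythroid markers (2977 CPM). For 8 members the labelled genotype difference itself differed between germinal centre and naive B cells in limma's joint fit, on the log2 scale: Ebi3 (−3.69), Il4i1 (−3.69), Tnfaip3 (−2.73), Cflar (−2.37), Cd83 (−1.52), Nfkbia (−1.20), Ltb (1.69) and Cd86 (1.71).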

How the results depend on the processing

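In germinal centre B cells 7 of the 12 called members kept their call under all 16 alternatives, and for the difference 6 of 8 under all 22. No member was called in naive B cells under any of 14. Leaving out 1 library gave 603 to 1134 called genes in germinal centre B cells (1162 with all libraries), 6 to 10 members lower and 2 to 3 higher. With no filter Tnfaip3 and Tnip1 were lost. Scaled to reads outside immunoglobulin genes, members lower in every bone marrow than in every spleen antibody-secreting cell library were 5 in place of 8. Without KO library 1 and WT library 3 together, 432 genes were called and 5 members were lower. Same-numbered germinal centre libraries of the 2 labels correlated at 0.0787, 0.000565 and 0.00779, against −0.0636 to 0.0261 for differently numbered ones. Naive ones correlated at −0.0471, 0.0379 and −0.0336, against −0.0365 to 0.0643. These values are on another scale than the correlations between replicates given above. Column headers give germinal centre WT libraries 2 and 3 each other's number. Pairing by replicate number was therefore not shown. With a replicate block, in which KO library 4 has no partner, 831 genes were called, with 9 members lower and 2 higher, losing Nfkb2 and Tnip1 and adding Traf1. For the difference the block gave 563 genes, 5 lower and 2 higher. Median-ratio scaling moved the median over all genes from 0.03 to −0.08 (log2), called 1103 genes, lost Tnip1 and added Traf1. Signs changed only in members that had not passed in the same comparison: 3 in germinal centre B cells, 6 in the difference and 13 in naive B cells. The cause was not tested. In germinal centre B cells the log2 fold change of Traf2 became −0.0385 with median-ratio scaling and −0.0684 with the block. Leaving out 1 library moved it from −0.0684 to 0.178, that of Birc3 from −0.35 to 0.0066 and that of Malt1 from −0.15 to 0.48. In naive B cells that of Cd83 was −0.0003 with array weights and −0.10 to 0.12 without 1 library, and that of Il4i1 −0.198 to 0.0706.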
